A study of Mus musculus with 4 samples.

Results

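The Hedgehog ligands and response genes were read in single-cell libraries of mouse digits labelled P3, after amputation of the tip of P3, the terminal phalanx. They were chosen by gene symbol: Shh, Ihh, Dhh, Ptch1, Smo, Gli1, Gli2, Gli3 and Hhip, 9 of the 33696 genes in each library, and all 9 symbols were found once. Every library held digits 2 to 4 of the hindlimb, pooled from 10 female C57BL/6 mice aged 6 to 8 weeks, so that the mice of a library cannot be told apart. The digits were severed at the proximal end of the middle phalanx (P2), so the tissue reached beyond P3 and took in the joint. By the study's methods only digits 2 and 4 lost their tip, so that cells of injured and uninjured digits may be mixed in a library. The running text of the study places the tissue at 8 days post amputation (DPA), while a legend gives an earlier day for the SAR131675 cells.

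The 4 libraries formed 2 pairs. The SAR131675 library came from mice given chow with 30 mg/kg of SAR131675, an inhibitor of the lymphatic growth factor receptor VEGFR3, and the control diet library from mice on matched chow without it. The sample records give 8 days of diet for both. By the study's methods, the SAR131675 chow began before amputation and was kept up afterwards. The LNR library came from limbs after lymph node removal. The sham library is labelled only as a control with no treatment, and the study describes it as the opposite limb of the operated mice. All 4 groups shared the amputation, the strain and the sex, and each group was 1 library with a batch number of its own, so treatment and batch cannot be told apart and no p-value can be given.

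Hedgehog ligands are secreted proteins that bind Ptch1, a receptor that holds the membrane protein Smo inactive. Once ligand is bound, Smo moves to the primary cilium and the transcription factors Gli2 and Gli3 switch from repressor to activator forms. Gli1, Ptch1 and Hhip are themselves transcribed in response, so that their RNA is commonly read as a sign of a responding cell, and both Ptch1 and Hhip bind ligand and limit its spread. In skin, Shh comes from the lower hair follicle. Ihh is known from cartilage that is turning into bone, and Dhh from Schwann cells of peripheral nerve.

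Barcodes with 200 to 5500 genes, at most 30000 unique molecular identifiers (UMIs, counted RNA molecules) and at most 10% mitochondrial UMIs were kept. This left 29076 cells in SAR131675, 24030 in control diet, 19827 in LNR and 20669 in sham. The median kept cell held 11316 and 10712 UMIs in the diet pair, against 5725 and 5851 in the LNR pair, so values were compared within a pair and shares of cells were also given after every cell had been thinned to 2000 UMIs. SAR131675 and control diet shared 348 barcodes, LNR and sham 130, while libraries of different pairs shared 0 to 3. The cause of that gap was not tested. Cells were clustered without the 9 genes and named from marker lists. Levels are counts per 1000000 UMIs (CPM), summed over the cells of a class, with exact 95% Poisson intervals that cover counting error only.

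The class named dermal papilla and nail mesenchyme had 6 of its 7 markers above the rest of the cells in every library, the Schwann class 7 of 7, the synovial lining class 5 of 5 and the chondrocyte class 5 or 6 of 6. Clusters were named from these same markers, so this excess was built in and does not back the names. The dermal papilla class held 36.7% (sham) to 56.6% (control diet) of the UMIs of its markers. Outer follicle keratinocytes held 19.4% (sham) to 32.8% (SAR131675) of theirs. The inner root sheath class was led by Krt35, a keratin of the hair shaft, beside the sheath keratins Krt25 and Krt71. It is therefore called the Krt35-led cluster below where only that cluster is meant.

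Ptch1 and Hhip, both induced in responding cells, were detected together in the dermal papilla class, and their upstream sequences are shown for that reason. RefSeq windows on GRCm38.p6 were found for 7 of the 9 genes (not for Shh or Gli1), each the 250 bases before the annotated start. The Ptch1 window lies at chr13:63565736-63565985 and the Hhip window at chr8:80058009-80058258, both on the minus strand and printed 5′ to 3′, with the 6-letter core of the Gli binding motif, CCACCC or GGGTGG on the other strand, in capitals.

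Ptch1: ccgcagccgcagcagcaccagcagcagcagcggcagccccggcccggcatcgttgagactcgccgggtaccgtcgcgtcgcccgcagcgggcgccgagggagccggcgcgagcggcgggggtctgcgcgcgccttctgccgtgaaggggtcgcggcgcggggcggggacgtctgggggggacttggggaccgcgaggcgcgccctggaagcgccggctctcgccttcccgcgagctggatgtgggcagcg

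Hhip: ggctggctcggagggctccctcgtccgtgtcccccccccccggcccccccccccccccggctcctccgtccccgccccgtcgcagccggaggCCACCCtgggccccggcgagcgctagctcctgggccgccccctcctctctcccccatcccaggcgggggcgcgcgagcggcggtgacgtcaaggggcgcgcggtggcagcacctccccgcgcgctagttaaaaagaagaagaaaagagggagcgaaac

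Both windows were rich in CpG pairs, with 41 in Ptch1 and 28 in Hhip, against a median of 6 over all 32851 windows of that length. The core was found in 6 of the 7 windows and not in that of Ptch1, but 28.1% of all windows hold it. The full 9-letter motif, GACCACCCA or TGGGTGGTC on the other strand, which contains the core, was in 0 of the 7 and in 74 windows (0.225%) in all. A match is a description of letters and not of binding, and an empty window says nothing of sites elsewhere.

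**Figure D1:**
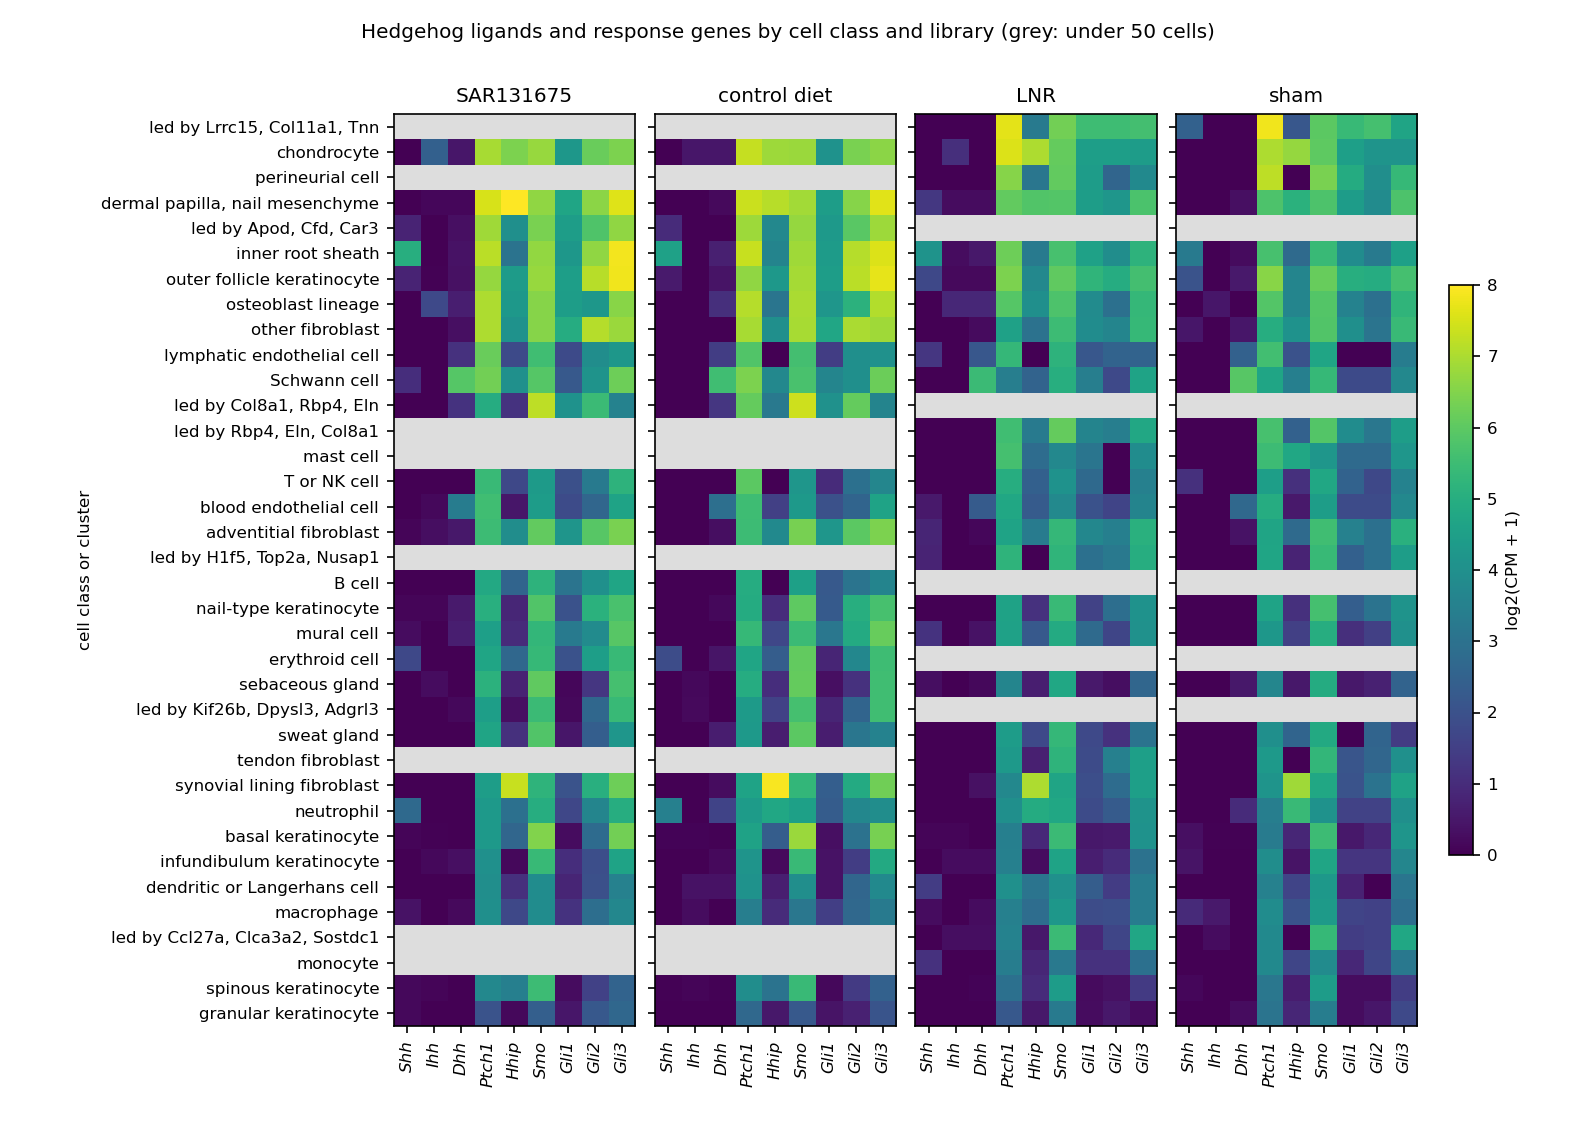
Level of each of the 9 genes as log2(CPM + 1) (colour) in each cell class or unnamed cluster (rows) of the 4 libraries (panels), with grey for classes under 50 cells in a library. Shh and Dhh stand out in the inner root sheath and Schwann rows, Hhip in the synovial lining, dermal papilla and chondrocyte rows, while Ptch1, Smo and Gli3 fill many rows.

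Of the ligands, Shh was sparse and concentrated in few cells. It gave 660 UMIs in SAR131675, 178 in control diet, 127 in LNR and 137 in sham, held by 191, 72, 61 and 63 cells. The inner root sheath class held 90.9%, 83.1%, 61.4% and 68.6% of these UMIs. Without the upper limits on genes and UMIs, the Krt35-led cluster alone held 39.2% of Shh UMIs over the libraries, against 68.4% with them. The limit on genes removed 15.1% and 12.9% of barcodes in the diet pair and 1.36% and 1.24% in the LNR pair. When each cell was instead classed by its own markers, inner root sheath held 15.6%, 45.5%, 37.0% and 29.9%, and outer follicle keratinocytes 27.1%, 23.0%, 18.9% and 21.2%. The 10 cells with the most Shh held 22.9% of its UMIs in SAR131675 and 47.4% to 49.4% in the other libraries, so each Shh value rests on few cells.

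In the Krt35-led cluster, Shh reached 35.0 CPM (32.0 to 38.2) in SAR131675, 25.9 (21.5 to 30.9) in control diet, 16.5 (13.1 to 20.6) in LNR and 18.5 (14.9 to 22.6) in sham. A neighbouring cycling cluster of the diet pair, led by H3c3 and also of the inner root sheath class, held 21.7 and 15.1 CPM. The cells of the Krt35-led cluster that held Shh were poor in Krt35 itself, at 154, 187, 62.8 and 41.5 CPM against 1578, 1217, 634 and 971 in its other cells. Outer follicle keratinocytes came next among epithelial classes, with 0.736, 0.486, 2.30 and 3.10 CPM. Hematopoietic classes, which should lack Shh, held 0.755, 0.942, 0.511 and 0.491 CPM. In the diet pair that background came mostly from 1 neutrophil (5 UMIs in each library) and 1 erythroid cell (6 and 7 UMIs). By cells with a Shh UMI, outer follicle keratinocytes stood at 0.418% and 0.286% there and hematopoietic classes at 0.134% and 0.109%, at median depths of 8719 and 7864 against 6779 and 6155 UMIs.

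Cells of the Krt35-led cluster with a Shh UMI carried more Ptch1 RNA than its other cells in the diet pair. Ptch1 stood at 199.8 CPM in the 118 Shh-holding cells of SAR131675, against 123 in the 947 others, and at 318 against 119 in control diet. In LNR it stood at 131 against 70.8 CPM, and in sham at 80.6 against 85.4 CPM, so that the difference was absent from the sham library. Gli1 stood at 25.0 against 13.5 CPM in SAR131675 and 31.7 against 13.8 in control diet, and at 22.6 against 23.6 in LNR and 26.9 against 25.5 in sham. Hhip was sparse, with at most 4 UMIs in the Shh-holding cells of a library, and went the other way, at 2.28 against 4.35, 1.58 against 7.04, 5.02 against 9.26 and 0 against 5.41 CPM. The Wnt ligand Wnt10b stood at 68.4 to 86.5 CPM in Shh-holding cells of the 4 libraries and at 12.98 to 20.1 in the others. The Wnt inhibitor Wif1 stood at 79.1 to 228 CPM against 8.25 to 17.5. Both were picked after ranking 9436 genes in these cells, so they describe these cells and support nothing further. Dcn, a fibroblast proteoglycan, was also 2.923 to 3.803 times as high in the Shh-holding cells (10 CPM added to each side). Median depth was 15343 against 13985 UMIs in SAR131675, 14870 against 11864 in control diet, 12312 against 11197 in LNR and 9745 against 10452 in sham, and its part, like that of fibroblast RNA, was not tested.

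**Figure D2:**
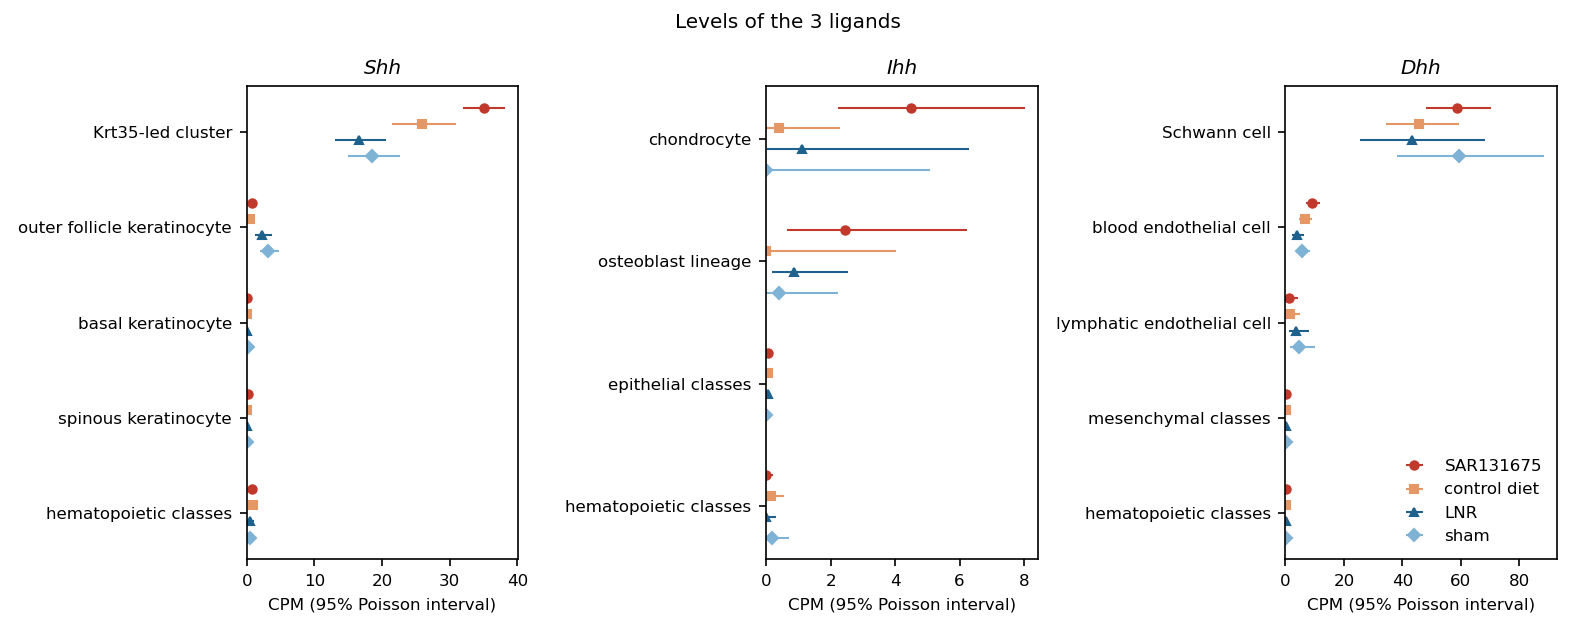
Level of Shh, Ihh and Dhh in CPM (x axis) in selected cell classes (y axis) of the 4 libraries (colours and symbols), with 95% Poisson intervals as bars. Shh is at 16.5 to 35.0 CPM in the Krt35-led cluster and Dhh at 43.3 to 59.5 CPM in Schwann cells, while most Ihh intervals reach close to 0.

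Dhh, the ligand of the nerve sheath, was highest in Schwann cells of every library. It stood at 58.6 CPM in SAR131675 (112 UMIs), 45.7 in control diet (56), 43.3 in LNR (18) and 59.5 in sham (24). Blood endothelial cells followed with 9.25, 6.63, 3.96 and 5.53 CPM, and hematopoietic classes held 0.0581 to 0.236 CPM. The gap between Schwann and blood endothelial cells exceeded both intervals in all 4 libraries. In lymphatic endothelial cells, the vessels that both treatments address, Dhh rested on 2, 3, 5 and 6 UMIs, too few to place them apart from blood endothelium in the LNR pair.

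Ihh was barely detected. It gave 33, 13, 11 and 5 UMIs in SAR131675, control diet, LNR and sham. Chondrocytes held 11, 1, 1 and 0 of them and osteoblast-lineage cells 4, 0, 3 and 1. In SAR131675 a single cell held 6 of the 33. By CPM, chondrocytes had the highest Ihh level of SAR131675, at 4.48 (2.24 to 8.02) on 3 cells. Osteoblast-lineage cells followed at 2.43 (0.663 to 6.23), also on 3 cells. The intervals overlap, and by share of cells the order was the opposite, at 1.08% of chondrocytes against 1.60% of osteoblast-lineage cells. In the other libraries the classes could not be ranked at this depth.

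Ptch1, the receptor and response gene, was detected across most classes. In the diet pair it was highest in the dermal papilla class, at 182 CPM in SAR131675 and 163 in control diet, followed by the inner root sheath class at 142 and 158.6 CPM. In control diet these levels lay so close that the order of both classes is not settled there. In the LNR pair it was highest in an unnamed cluster led by Lrrc15, Col11a1 and Tnn, at 202 CPM in LNR and 228 in sham, where the dermal papilla class held 66.8 and 53.3. Chondrocytes held 122, 155, 188 and 129 CPM, and outer follicle keratinocytes 105, 101, 84.6 and 94.96. Granular keratinocytes were lowest of all classes named here, at 3.15, 5.52, 3.58 and 7.49 CPM.

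Within the dermal papilla class most Ptch1 came from a single cluster in each pair, led by Gpc5 in the diet pair and by the pigment gene nonagouti (a) in the LNR pair, both with high Rspo3, a Wnt enhancer of the papilla. Ptch1 stood at 498 CPM (473 to 524) there in SAR131675, 649.7 (608 to 693) in control diet, 157 (136 to 182) in LNR and 150 (124 to 180) in sham. After thinning, 40.7%, 38.2%, 28.1% and 19.5% of these cells held a Ptch1 UMI. The share in hematopoietic classes, at median depths of 6779, 6155, 3496 and 3358 UMIs, was 3.45%, 3.18%, 2.70% and 2.28%.

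Gli1, whose transcription depends on the pathway, was scarcer than Ptch1 in UMIs. By class it was highest in other fibroblasts in the diet pair, at 29.8 CPM in SAR131675 and 25.7 in control diet, where the dermal papilla class held 25.1 and 20.8. The dermal papilla cluster held 63.3 CPM of Gli1 in SAR131675, 71.6 in control diet, 45.4 in LNR and 35.8 in sham. The Lrrc15-led cluster held 44.8 CPM (32.8 to 59.8) in LNR and 40.7 (28.3 to 56.6) in sham. A Fam13a-led cluster of outer follicle keratinocytes held 47.8 and 40.8 CPM there, so the first place in the LNR pair is not settled. Outer follicle keratinocytes held 21.3, 20.8, 36.6 and 31.5 CPM, and 24.3% to 29.9% of all Gli1 UMIs, the largest portion of any class named here. Basal keratinocytes, next to the follicle in lineage, held 0.214 to 0.438 CPM and spinous keratinocytes 0.121 to 0.207. Gli1 was thus near 0 in interfollicular epidermis of all 4 libraries, while hematopoietic classes held 1.26 to 2.98 CPM.

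Cells with Gli1 also held Ptch1 more often. In outer follicle keratinocytes thinned to 2000 UMIs, 26.7%, 31.5%, 32.0% and 33.9% of cells with a Gli1 UMI held Ptch1, against 13.5%, 13.4%, 12.96% and 13.6% of cells without. In the dermal papilla class the shares were 48.8%, 39.5%, 24.2% and 34.5% against 16.3%, 13.7%, 9.09% and 6.09%. The direction was the same in 4 of 4 libraries in both classes. Both classes mix clusters that differ in Gli1 and Ptch1. Of all thinned cells in the Gpc5-led or nonagouti-led cluster of the dermal papilla class, 40.7%, 38.2%, 28.1% and 19.5% held Ptch1. The part of this mixing in the excess was not tested. These are shares of cells within a library, with no test.

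Hhip, the secreted-ligand trap, was high in 3 mesenchymal classes. Synovial lining fibroblasts, marked by the lubricin gene Prg4, held 158 CPM in SAR131675, 240.0 in control diet, 129 in LNR and 116 in sham. The dermal papilla class held 307, 139, 56.0 and 33.5 CPM, and chondrocytes 85.1, 114, 129 and 105. Basal keratinocytes held 5.19, 4.16, 0.885 and 0.813 CPM and hematopoietic classes 2.43 to 8.10. The first place went to the dermal papilla class in SAR131675 and to the synovial lining in the other 3, where in the LNR pair synovial lining and chondrocytes had overlapping counting intervals.

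Most Hhip UMIs of the dermal papilla class came from the Gpc5-led or nonagouti-led cluster. Hhip stood there at 935 CPM (900 to 970) in SAR131675, 664 (622 to 707) in control diet, 212 (187 to 240) in LNR and 131 (107 to 160) in sham. The rest of the class held 9.24, 5.89, 4.77 and 8.72 CPM. The cluster was therefore the site of the highest Hhip, Ptch1 and Gli1 levels of any cluster of at least 50 cells in the diet pair.

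In LNR and sham, neutrophils also gave 29.1 and 42.3 CPM of Hhip. These came from 11 and 8 cells, of which 5 and 5 were called doublets by Scrublet, a tool that scores barcodes holding a pair of cells, against 22.5% and 16.0% of all neutrophils. Their part in the neutrophil level was not tested.

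Dermal papilla cells with Hhip held Ptch1 more often than those without in every library. In the synovial lining this was so in SAR131675 only, and few synovial cells held both. After thinning, 79 of 158 dermal papilla cells with a Hhip UMI held Ptch1 in SAR131675, 38 of 71 in control diet (53.5%), 16 of 38 in LNR (42.1%) and 11 of 26 in sham (42.3%). Of the cells without Hhip, 11.8%, 11.3%, 8.17% and 5.91% held Ptch1. In the synovial lining, Ptch1 was held by 4.92%, 3.08%, 0.943% and 1.83% of cells with Hhip and by 3.24%, 7.14%, 2.81% and 3.17% of those without. The synovial lining as a whole held Ptch1 in 3.47%, 6.38%, 2.56% and 2.99% of thinned cells, at or close to the hematopoietic share everywhere but in control diet. Synovial Hhip was thus measured in cells with little Ptch1, and Gli1 there was 2.81 to 4.23 CPM.

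The dermal papilla cluster with most Hhip was also that with most Ptch1. Within that cluster alone, thinned cells with Hhip still held Ptch1 more often, at 53.8% in SAR131675, 56.2% in control diet, 55.2% in LNR and 9 of 18 cells in sham, against 32.5%, 30.4%, 20.8% and 11.6% of cells without. Gli1 in the same cells stood at 15.4%, 17.2%, 6.90% and 11.1% with Hhip and 6.14%, 11.5%, 5.66% and 5.80% without. In LNR and sham, each Gli1 share with Hhip rests on 2 cells.

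**Figure D3:**
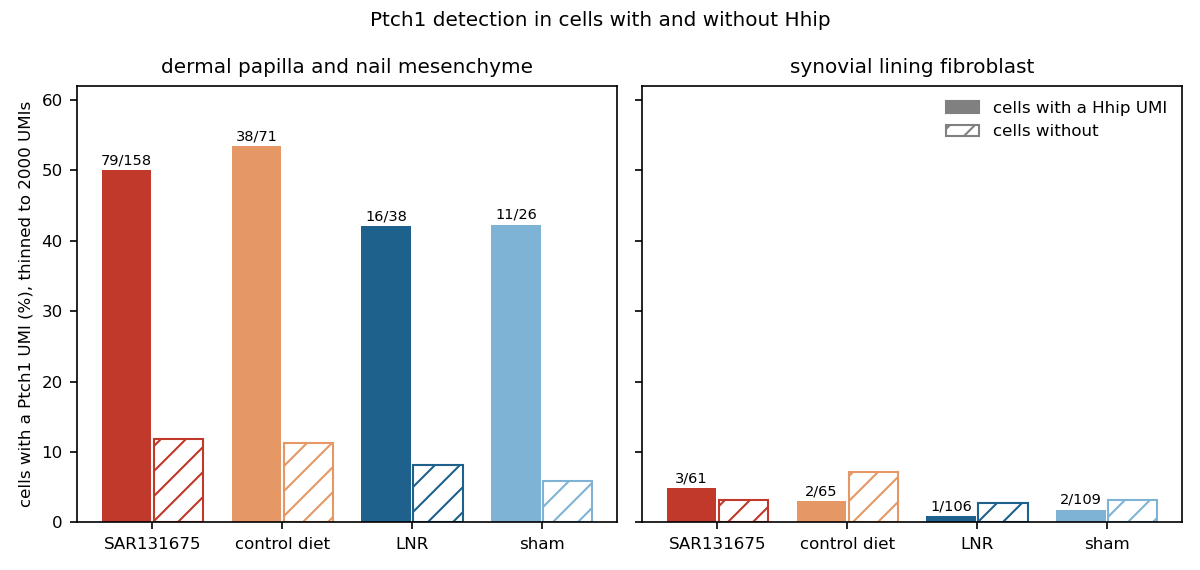
Percent of cells with a Ptch1 UMI after thinning to 2000 UMIs (y axis) among cells with a Hhip UMI (filled bars, with counts above) and without (hatched bars) in each library, for the dermal papilla and nail mesenchyme class (left) and synovial lining fibroblasts (right). Filled bars stand at 42.1% to 53.5% on the left and at 0.943% to 4.92% on the right.

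Smo, Gli2 and Gli3 relay the signal and need not be induced by it. Smo reached 20 UMIs over the pair in 28 of 28 classes of the diet pair and 30 of 31 of the LNR pair. Gli3 did so in 27 and 24 and Gli2 in 26 and 17. The LNR pair had fewer UMIs per cell, so these counts do not compare breadth between the pairs. Smo held 109, 121, 65.1 and 68.9 CPM in outer follicle keratinocytes, 88.2, 110, 42.5 and 43.8 in basal keratinocytes and 19.7, 23.3, 16.2 and 18.0 in hematopoietic classes. Basal keratinocytes thus had Smo with almost no Gli1. Gli2 held 141, 142, 29.7 and 29.9 CPM in outer follicle keratinocytes, its highest class in the diet pair. Gli3 held 226, 205, 47.8 and 48.7 CPM in the same class and 194, 201, 51.8 and 53.0 in the dermal papilla class. Both Gli genes were several times higher in the diet pair than in the LNR pair in each of these classes.

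The longest genes had the largest gap. Over the mean of each pair, Gli2 was 6.34 times and Gli3 3.81 times as high in the diet pair, at 219 and 267 kb of annotated span on GRCm38. Gli1, of 12.1 kb, was 0.991 times as high, Ptch1 (65.3 kb) 1.76 times, Smo (25.9 kb) 1.95 times, Hhip (92.2 kb) 1.57 times, and the ligands 1.30 to 1.45 times. Over all genes with at least 5 UMIs in every library, the median was 0.962 times for the 6147 genes under 10 kb and 3.24 times for the 2341 of 100 kb and over. Headers name Cell Ranger 8.0.1 for the diet pair and 6.1.2 for the LNR pair. Pair, batch and software version cannot be told apart, so these gaps between the pairs are not read as differences between groups of mice.

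**Figure D4:**
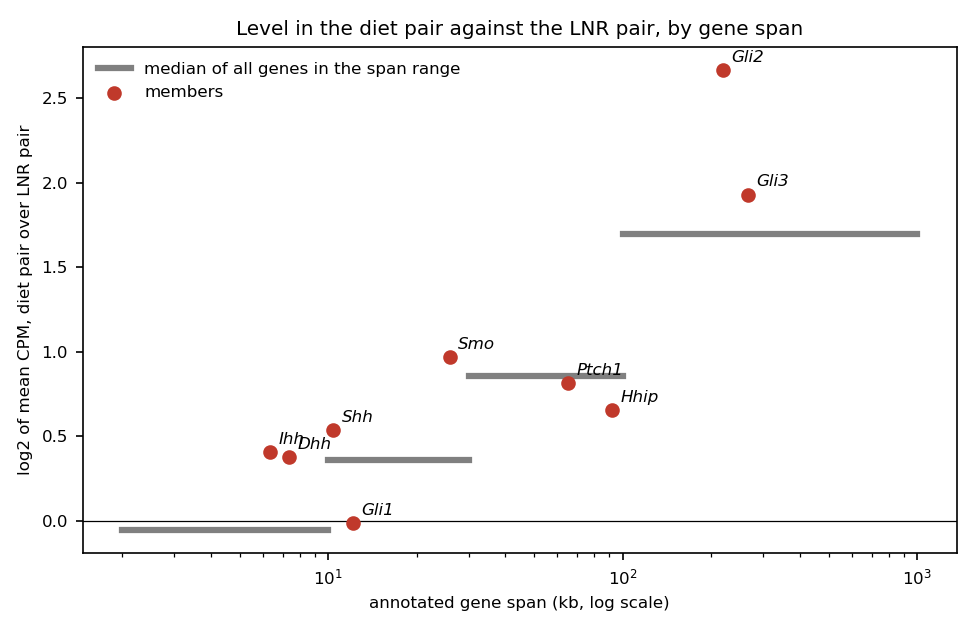
Level in the diet pair over that in the LNR pair, as log2 of the mean CPM (y axis), against annotated gene span in kb on a log axis (x axis), for the 9 genes (points) and as the median of all genes in 4 span ranges (grey lines, from under 10 kb to 100 kb and over). The medians rise from -0.06 to 1.70, with Gli2 at 2.67, Gli3 at 1.93 and Gli1 at -0.01.

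The first comparison asked how the 9 genes differed with VEGFR3 inhibition. Over all kept cells, Shh stood at 1.94 CPM in SAR131675 and 0.670 in control diet, a log2 ratio of 1.54 (95% interval 1.30 to 1.78). It was the only one of the 9 past 2-fold among genes with at least 20 UMIs over the pair, where 3.0% of 22625 genes were past 2-fold in either direction. Ihh followed at 0.99 (0.03 to 2.04) on 33 and 13 UMIs, and Dhh at 0.52 (0.20 to 0.85). The response genes differed less, with Hhip at 0.32 (0.26 to 0.37), Gli1 at 0.28 (0.18 to 0.38) and Ptch1 at 0.16 (0.13 to 0.20). Gli3 stood at 0.26, Gli2 at 0.21 and Smo at -0.10. The median of all genes was -0.02. Shh thus stood apart from its response genes, none of which reached 2-fold, but as a share of cells thinned to 2000 UMIs its own ratio was 0.99.

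The Krt35-led cluster made up 3.66% of kept cells in SAR131675 (1065) and 1.82% in control diet (438). Within it, Shh had a log2 ratio of 0.44 (0.15 to 0.73), 1.35-fold and short of 2-fold. In all other cells the ratio was 1.26 (0.81 to 1.73), on 164 and 55 UMIs, of which 104 and 25 lay in the H3c3-led cluster of the same class. The inner root sheath class as a whole held 1362 cells in SAR131675 and 557 in control diet, and within it Shh had a ratio of 0.45 (0.19 to 0.72), short of 2-fold. Mycn, a proliferation gene, stood at 96.9 against 92.8 CPM within the cluster, 8.15 against 3.71 over all kept cells and 4.28 against 2.08 without the cluster. For the share of Krt35-led cells, too, treatment and batch cannot be told apart.

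In the dermal papilla class, Hhip stood at 307 CPM in SAR131675 and 139 in control diet, a log2 ratio of 1.14 (1.037 to 1.249), where 3.35% of 14179 genes were at least 2-fold higher. It fell short of 2-fold as a share of thinned cells (0.87), with no upper limits on cells (0.94) and with each cell classed by its own markers (0.92). The Gpc5-led cluster was 36.5% of the class in SAR131675 and 26.2% in control diet, and within it the ratio was 0.49 (0.39 to 0.60). Ptch1 in that cluster went the other way, at -0.38 (-0.50 to -0.26), and Gli1 stood at -0.18 (-0.53 to 0.18). In the synovial lining Hhip was lower in SAR131675, at -0.60 (-0.72 to -0.48), and in chondrocytes at -0.42 (-0.68 to -0.15). Whether these ratios differ between classes beyond the spread of libraries cannot be tested with 1 library a group.

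Across the 28 classes or unnamed clusters with at least 50 cells in both diet libraries, 143 values of the 9 genes had 20 UMIs or more. Of these, 9 (6.29%) were past 2-fold, against 4.34% of all gene and class values. Hhip gave 3, in the dermal papilla class, osteoblast lineage (30 against 7 UMIs, log2 ratio 1.252) and macrophages (15 against 5). Gli2 gave 2, at 2.43 in granular keratinocytes (26 against 6 UMIs) and -1.08 in mural cells (71 against 102). Gli3 gave 2, at 1.60 in T or NK cells (61 against 12 UMIs) and 1.12 in neutrophils (27 against 7). The last ones were Ptch1 at -1.18 in the cluster led by Col8a1 (47 against 48 UMIs) and Gli1 at -1.64 in Schwann cells (7 against 14). Beyond Hhip in the dermal papilla class, each of these rested on at most 102 UMIs in a library.

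**Figure D5:**
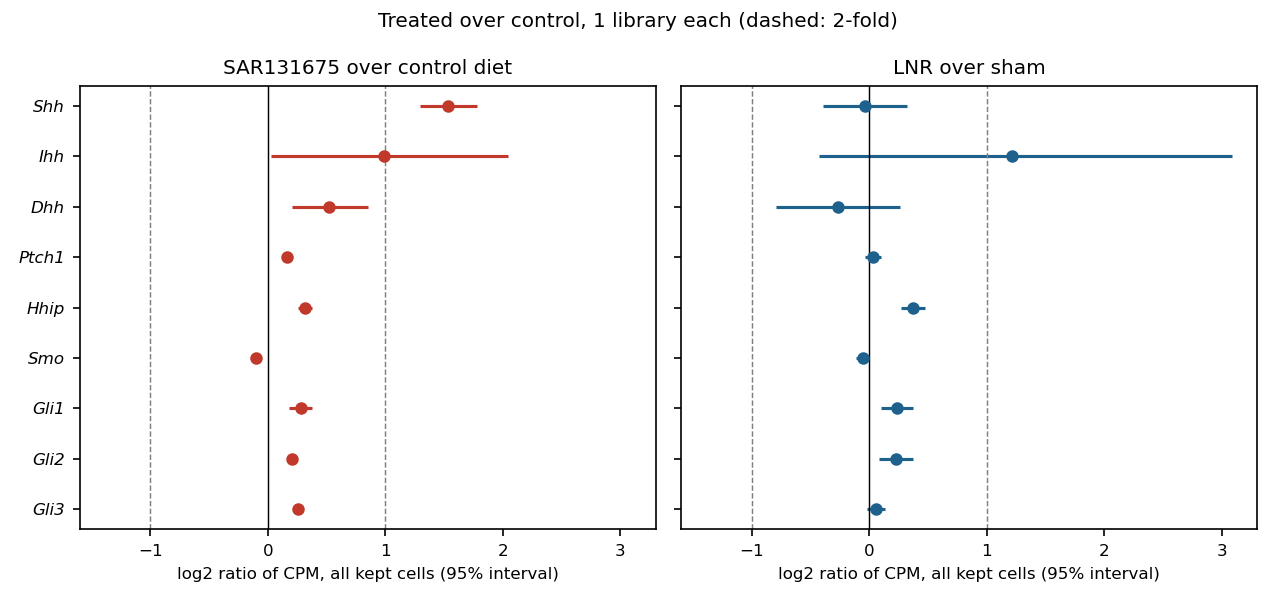
Log2 ratio of CPM over all kept cells (x axis) for each of the 9 genes (y axis), SAR131675 over control diet on the left and LNR over sham on the right, with exact 95% intervals as bars and 2-fold as dashed lines. Shh stands at 1.54 on the left and at -0.03 on the right.

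The second comparison asked the same of lymph node removal. Shh stood at 0.889 CPM in LNR and 0.910 in sham, a log2 ratio of -0.03 (-0.39 to 0.33). That interval treats each UMI as independent, while Shh UMIs were clumped in few cells, so it does not exclude a change of 2-fold. None of the 9 was past 2-fold with 20 UMIs or more, where 1.93% of 19200 genes were. Hhip had the largest ratio, 0.37 (0.27 to 0.47), ahead of Gli1 at 0.24 (0.10 to 0.37) and Gli2 at 0.23 (0.08 to 0.38). Ptch1 stood at 0.03 (-0.04 to 0.10), Gli3 at 0.06, Smo at -0.05 and Dhh at -0.26 (-0.79 to 0.26). Ihh had 11 and 5 UMIs and was not compared.

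Within classes of this pair, Hhip in the nonagouti-led dermal papilla cluster stood at 212 CPM in LNR and 131 in sham, a log2 ratio of 0.69 (0.35 to 1.04), with Ptch1 at 0.07 (-0.27 to 0.42) there. In the synovial lining Hhip was at 0.16 (0.02 to 0.29) by CPM and at -0.00198 as a share of thinned cells, so its direction was not settled. Of 132 class values of the 9 genes, 4 (3.03%) were past 2-fold, against 3.86% of all gene and class values. They were Hhip at 1.03 in macrophages (31 against 13 UMIs) and -1.16 in other fibroblasts (40 against 81), Gli1 at 2.40 in mural cells (19 against 3) and Ptch1 at -1.06 in granular keratinocytes (17 against 37). The inner root sheath class gave a Shh ratio of 0.91 (0.46 to 1.36) as a whole, but a cluster led by Krt36 made up 388 of its 827 cells in sham and 6 of 402 in LNR. In the Krt35-led cluster alone, with 396 and 439 cells, Shh had a log2 ratio of -0.16 (-0.61 to 0.29).

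By CPM, Hhip in the papilla cluster was above its control in both pairs by counting error and by less than 2-fold. By cells with a Hhip UMI after thinning, the cluster stood at 38.5% against 30.2% in the diet pair but at 21.5% of 135 cells against 20.7% of 87 in the LNR pair, so that the LNR difference was not seen on that scale. The spread between animals is unknown.

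Of 35 other pathway genes, 34 were compared in the diet pair and 33 in the LNR pair. Mycn, a cell-cycle target of the pathway, was the only one past 2-fold in the diet pair, at a log2 ratio of 1.14 on 2767 against 985 UMIs, where 3.0% of all genes were. Scube1, of the family that helps release ligand, was the only one in the LNR pair, at 1.00 on 215 against 113 UMIs, where 1.93% of all genes were. Both were higher in the treated library, and the median ratio of the list was 0.13 and 0.10. Among classes and unnamed clusters, Gli1 CPM was highest in other fibroblasts in the diet pair and in the Lrrc15-led cluster in the LNR pair. Single clusters of named classes were as high in the LNR pair. In these 2 groups of cells, the co-receptor Gas1 stood at 911 and 865 CPM in SAR131675 and control diet and at 338 and 349 in LNR and sham. The co-receptor Cdon stood at 323 and 337 CPM in the former and at 39.0 and 58.1 in the latter, the kinase Csnk1a1 at 375, 344, 289 and 323 and the kinase Gsk3b at 241, 260.1, 150.1 and 167. The ubiquitin ligase adaptor Spop stood at 238.5, 247, 126 and 139 CPM. The cell-cycle gene Ccnd1 stood at 106 and 75.8 CPM in other fibroblasts of the diet pair and at 251 and 227 CPM in the Lrrc15-led cluster of the LNR pair. Gas1 was far higher in the cluster led by Rbp4 and Eln, at 1370 CPM in LNR and 1384 in sham, where Gli1 was 11.3 and 13.7 CPM.

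Across the 118 sums of a class in a library, each of at least 50 cells, Ptch1 and Gli1 had a Pearson correlation of 0.80 on log2(CPM + 1), Gli1 and Gli2 0.75, and Gli1 and Hhip 0.55. Within the diet and LNR pairs these were 0.80 and 0.85, 0.91 and 0.83, and 0.61 and 0.49. The highest value of a ligand with any other of the 9 genes was 0.28 over all sums, between Shh and Gli1, and 0.39 for the same genes within the LNR pair. The sums share libraries and depth, so these values describe the classes only. Of the other 19633 genes searched, those most like Dhh were Fam107a (0.91), Pllp (0.88) and Hepacam (0.86), and those most like Shh were Golga7b (0.78), 9530036O11Rik (0.76) and Calhm4 (0.71). Fzd2 (0.88), Ccdc8 (0.87) and Mfap2 (0.85) were nearest to Gli1, and Tulp3 (0.78), Peg3 (0.77) and Tet1 (0.77) to Ptch1. Hhip had no near match, with Epb41l3, Ugp2 and Slc7a2 at 0.66, and neither had Ihh, with Gm31048 at 0.60, Dync1i1 at 0.59 and Col11a2 at 0.58.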

How the data were processed

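P3 digit cells were sequenced with 10x 3' chemistry. The authors deposited whole-number UMI counts per gene and barcode, made with Cell Ranger on GRCm39 according to the submitters' processing notes, which name version 6.1.2 for all libraries. The file headers name 6.1.2 for the LNR pair and 8.0.1 for the diet pair. Deposited totals were 168507188 to 585284877 UMIs per library. The 9 genes and all lists were chosen with earlier results of these data known.

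Each pair was clustered on its own with scanpy 1.11.5 (2000 variable genes without the 9 genes and the 35 pathway genes, 30 principal components, 20 neighbours, Leiden resolution 2.0), and clusters were named from marker lists. Clusters with mixed or opposing markers stayed unnamed. Doublets were left in. Sums of counts were divided by the total UMIs of the class (CPM). Log2 ratios carry exact conditional 95% intervals (scipy 1.17.1) and were compared with at least 20 UMIs over the pair. With 1 library per group no test was run, and intervals cover counting error only. The ratio was tried on simulated Poisson counts, the model that its interval assumes, so that trial does not cover UMIs clumped in few cells. Alternatives were resolution 0.7, classing each cell by its own markers, no upper limits on genes and UMIs, removal of Scrublet doublets, thinning to 2000 UMIs, each pair alone, and other thresholds. Genes named were the 9, pathway genes among the 5 highest where Gli1 was highest or past 2-fold over all cells, and the 3 genes nearest to each of Shh, Ihh, Dhh, Gli1, Ptch1 and Hhip. Krt35, Wnt10b, Wif1 and Dcn were named after their values were seen. Some items are not reported here.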

Additional observations from a re-analysis of the deposited data

How the results depend on the processing

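Of 234 alternative values, 185 were labelled the same, 48 moved and 1 reversed. Levels and shares were held against the spread over the libraries and ratios against the counting error. Counts and percentages of genes past a threshold had rules of their own. Levels and shares from each pair alone could not be labelled moved, since the spread over the libraries includes the gap between the pairs. Their label therefore says nothing about stability. The causes were not tested. The reversed value was the log2 ratio of Hhip in the synovial lining of LNR over sham, from 0.156 to -0.00198 when shares of thinned cells replaced CPM.

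Shares of thinned cells also moved the diet ratios over all kept cells to 0.99 for Shh, 0.042 for Ptch1, 0.13 for Gli1, 0.036 for Gli2, 0.093 for Gli3 and 0.21 for Hhip, and Hhip to 0.87 in the dermal papilla class and -0.42 in the synovial lining. Shh then no longer reached 2-fold, nor did Hhip in the dermal papilla class. For LNR over sham they gave 0.10 for Ptch1 and 0.16 for Hhip over all kept cells and 0.22 for Hhip in the dermal papilla class.

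With no upper limits, the diet ratios over all kept cells were 0.28 for Ptch1, 0.33 for Gli2 and 0.42 for Hhip. Shh in the Krt35-led cluster was at 0.13 and, in the dermal papilla class, Hhip at 0.94 and Ptch1 at 0.30. Mean levels were 24.2 CPM of Gli1 in the dermal papilla class and 129.7 of Hhip in chondrocytes, and the Krt35-led cluster held 39.2% of Shh UMIs against 68.4%. With resolution 0.7, mean levels were 43.3 CPM of Dhh in Schwann cells and 107 of Ptch1 in outer follicle keratinocytes, and the dermal papilla ratios were 1.02 for Hhip in the diet pair and 0.056 for Ptch1 in the LNR pair. With Scrublet doublets removed, Dhh in Schwann cells was 60.6 CPM, and 2 of the 9 genes, Shh and Ihh, were past 2-fold in the diet pair. Scrublet called 4.67% of SAR131675, 0.907% of control diet, 7.41% of LNR and 6.97% of sham cells, where 23.3%, 19.2%, 15.9% and 16.5% were expected, so its removal was partial and uneven within the diet pair. Of cells with Shh in LNR, 12 of 61 (19.7%) were called.

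Classing each cell by its own markers spread Shh over more classes, with 15.6% to 45.5% of its UMIs in inner root sheath and 18.9% to 27.1% in outer follicle cells. The hair shaft and nail plate group, set here in place of the Krt35-led cluster, held 3.70% at 4.72 CPM, with a diet ratio of 0.12. Ptch1 then stood at 253 CPM in the dermal papilla class and 149 in outer follicle keratinocytes, Gli1 at 36.5 and 39.2, and Hhip at 309 in the dermal papilla class, with diet ratios of 0.92 for Hhip and 0.0059 for Ptch1.

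Without thinning, the mean share of cells was 0.392% for Shh in all cells, 15.6% for Dhh in Schwann cells, 13.2% and 29.7% for Gli1 and Ptch1 in outer follicle keratinocytes, 23.5% for Ptch1 in the dermal papilla class and 31.2% for Hhip in the synovial lining. Thinning moved the excess of cells with Ptch1 among cells with Gli1 in outer follicle keratinocytes from 36.6 to 17.6 percentage points, and among cells with Hhip in the dermal papilla class from 42.3 to 37.7. Genes past 2-fold were 1.10% and 0.516% in the diet and LNR pairs with at least 100 UMIs, and 9.69% and 6.59% of genes were past 1.5-fold.

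No paired analysis was possible because each group is 1 library and the pairs share a single replicate number. Ihh and Shh rest on 5 to 191 cells per library.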
